A study of Homo sapiens with 6 samples.

Results

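Transcribed unprocessed pseudogenes are gene copies that arose by duplication of a stretch of genome, kept the exon and intron layout of the original, lost an intact reading frame, and still give RNA. They were chosen by biotype and mean count, as every row of the deposited gene count table of that biotype with a mean of at least 10 counts over the 6 libraries, which gave 203 of the 884 rows of the biotype and of 58735 rows in all. The mean count chose the members, so their levels are given below as a description. The difference between knockdown and control was not used to choose them.

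The libraries came from Mum-2b cells, a human line labelled as uveal melanoma, a cancer of the pigment cells of the eye. Control libraries (n = 3, labelled NC, genotype WT) were compared with libraries of cells whose NELFCD was knocked down by a short hairpin RNA (n = 3, titled shRNA1). NELFCD belongs to the negative elongation factor, the complex that holds RNA polymerase II in a paused state shortly after it starts a transcript. A single hairpin number was given, so effects of the target and of other RNAs that this hairpin may hit cannot be told apart. The labels do not say whether replicates were separate cultures, so p-values measure the spread between these samples, which may be technical. How many times cells were transduced and whether they were pooled or cloned was not given in the sources used here.

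Total counts ran from 14306733 to 16656630 per library. NELFCD had 956, 1248 and 1336 counts in control replicates 1 to 3 and 311, 618 and 588 in knockdown replicates 1 to 3. Replicate 1 of both groups stood apart from replicates 2 and 3: for 112 of the 201 pseudogenes tested its level differed at a Benjamini-Hochberg adjusted p under 0.05 by edgeR, against 61.8% of all 14844 genes tested. Of 8 melanocyte markers, 6 averaged under 1 CPM (counts per total counts of the library, scaled by the TMM method) in the controls and 1 of these was at 0. MLANA had 0.637 to 1.03 CPM, while TYRP1 had 3.26 to 4.80 CPM and MITF 2.76 to 3.31 CPM. Most defining markers of the labelled tissue were thus near 0. The epithelial keratins KRT8 and KRT18 summed with EPCAM and CDH1 to between 686 and 1301 CPM in the controls and between 1058 and 1462 CPM in the knockdown. Nearly all of it was keratin: EPCAM had 0.0685 to 0.637 CPM in the controls and at most 0.182 CPM in the knockdown. CDH1 was at 0 in the controls and at most 0.0685 CPM in the knockdown. Summed endothelial markers were 125 to 165 CPM in the controls and 53.8 to 57.7 CPM in the knockdown, nearly all of it CDH5, the vascular endothelial cadherin. Immune markers summed to at most 0.343 CPM. The part of these differences in the results below was not tested.

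A duplicated copy brings its own introns and often some of its promoter, which is how such a pseudogene can be transcribed without a host gene. Its RNA usually carries early stop codons or shifted frames, and spliced RNAs of that kind are known substrates of nonsense-mediated decay (NMD), the pathway that removes messages with premature stops. The copies also resemble their parents closely, so short reads can be hard to assign to one or the other.

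The sequences below show what sets the RNA of 5 pseudogenes that the results turn on apart from the coding sequence of the parent. Each line is up to 90 bases, 5′ to 3′, from GENCODE release 29 transcripts (GRCh38), with capitals for bases that differ from, or are missing in, the other line of the pair. PGM5P2 lies at chr9:41006999-41074617 on the minus strand and has 9 exon blocks. Its line and that of PGM5 cover bases 223 to 312 of the parent's coding sequence and hold C268T, counted from the first coding base, which turns codon 90 from CGA to the stop TGA.
PGM5P2: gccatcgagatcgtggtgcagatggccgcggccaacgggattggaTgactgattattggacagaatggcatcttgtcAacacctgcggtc
PGM5: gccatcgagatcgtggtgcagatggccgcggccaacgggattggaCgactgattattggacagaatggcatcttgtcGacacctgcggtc

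AADACP1, at chr3:151770428-151784894 on the plus strand with 5 exon blocks, is shown over bases 49 to 138 of the coding sequence of AADAC. A94T turns codon 32 from AGA to TGA, and differences lie all along the window, which goes with 79.1% identity over the whole alignment.
AADACP1: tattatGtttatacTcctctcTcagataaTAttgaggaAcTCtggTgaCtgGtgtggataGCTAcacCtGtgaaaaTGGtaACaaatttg
AADAC: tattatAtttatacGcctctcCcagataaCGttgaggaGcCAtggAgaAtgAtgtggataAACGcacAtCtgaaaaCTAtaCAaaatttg

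SORD2P, at chr15:44825747-44884694 on the minus strand with 12 exon blocks, keeps 98.0% identity to SORD over 1069 aligned bases. Its transcript lacks a single base of SORD at codon 251, which shifts the frame, and no stop lies in frame with the parent before it.
SORD2P: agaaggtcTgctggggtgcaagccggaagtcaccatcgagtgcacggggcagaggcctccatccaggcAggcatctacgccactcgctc
SORD: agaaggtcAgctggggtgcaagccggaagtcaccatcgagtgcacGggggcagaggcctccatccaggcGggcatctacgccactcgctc

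RPL23AP82, at chr22:50756948-50801309 on the plus strand with 6 exon blocks, holds 2 bases more than RPL23A at codon 36 within a stretch otherwise close to the parent.
RPL23AP82: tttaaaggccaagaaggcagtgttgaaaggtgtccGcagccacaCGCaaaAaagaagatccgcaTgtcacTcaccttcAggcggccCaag
RPL23A: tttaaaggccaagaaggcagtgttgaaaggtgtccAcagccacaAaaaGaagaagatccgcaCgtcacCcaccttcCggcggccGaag

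FAM86DP, at chr3:75421552-75435110 on the minus strand with 9 exon blocks, is aligned to EEF2KMT, the coding gene first named FAM86A. It carries 2 bases more than EEF2KMT at codon 60, which shifts the frame.
FAM86DP: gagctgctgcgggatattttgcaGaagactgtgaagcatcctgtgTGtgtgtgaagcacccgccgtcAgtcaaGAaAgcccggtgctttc
EEF2KMT: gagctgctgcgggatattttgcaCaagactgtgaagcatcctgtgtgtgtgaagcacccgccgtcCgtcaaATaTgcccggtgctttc

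For 93 of the 203 pseudogenes the symbol gave a protein-coding parent, 64 parents in all. An alignment to the parent's coding sequence was found for 92 of the 93, all but ADAM20P1, with a median identity of 94.1% and a range of 68.7% to 99.7%. Of these, 84 carried an in-frame stop codon or a gap that shifts the frame: 56 had a stop and 78 a frame-shifting gap. The pseudogenes had a median of 10 exon blocks, and 4 had a single one. Chromosome 7 held 28 of them, chromosome 1 held 23, chromosome 15 held 19, chromosome 16 held 18 and chromosome 17 held 16, together 104 of 203. Of the 93 with a parent, 70 (75.3%) lay on the parent's chromosome.

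How far their reads can be told from those of other genes varied widely. Cut into all 75-base words, the transcripts of 180 pseudogenes shared at least 1 word with a transcript of another gene, 58 shared at least 50% of their words, and 23 shared none. The median share was 23.3%. Exons of 116 overlapped an exon of another gene, 78 of them on the opposite strand. Whether counting used strand, and how reads with several best positions were handled, was not given in the sources used here, so counts of near-identical copies and of overlapping genes are uncertain.

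The pseudogenes took 0.184%, 0.137% and 0.143% of the counts of control replicates 1 to 3 and 0.208%, 0.148% and 0.152% of knockdown replicates 1 to 3. Within each replicate number the knockdown library was the higher, and the replicate 1 libraries were the highest of their groups. Levels per length were low: the median of the mean FPKM (fragments per length and library depth, as deposited) was 1.40, against 5.86 for protein-coding genes with the same minimum count, and 123 of 203 reached 1 FPKM. Mean counts ran from 10.5 to 1070 with a median of 66.7. Just inside the minimum lay SHLD2P1, with 16, 7 and 10 counts in the controls and 10, 6 and 16 in the knockdown, and AC004951.2, with a mean of 10.5. Just outside lay AC024940.1 with a mean of 9.67 and URAHP with 9.33.

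AADACP1 had the highest FPKM, a mean of 34.7 with a range of 26.0 to 52.8 over the 6 libraries. Its parent AADAC, an arylacetamide deacetylase of the endoplasmic reticulum, averaged 12.5 FPKM, so the pseudogene stood at 277% of its parent. Next came SBDSP1 at 26.7 FPKM, a copy of the ribosome maturation gene SBDS, then AC068647.2 at 18.1, AL390728.4 at 11.1, FRG1HP at 10.4 and WASH3P at 10.2. CROCCP2, a copy of the gene for the ciliary rootlet protein rootletin, had 9.51 FPKM, AC132008.2 9.16, LRRC37A4P 7.87 and SDHAP1, a copy of a succinate dehydrogenase subunit gene, 7.37. Over the 83 pairs whose parent also averaged at least 10 counts, the pseudogene's FPKM was a median of 15.5% of the parent's, and 13 pseudogenes exceeded their parent. Besides AADACP1 these included LRRC37A4P, CROCCP2, SNX18P3, CA5BP1 and 3 copies of DPY19L2. Their parents were low, with mean FPKM of 0.149 for LRRC37A, 0.512 for CA5B, 0.517 for DPY19L2, 1.37 for SNX18 and 1.70 for CROCC.

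Whether NELFCD knockdown moved these RNAs depended on how the replicate numbers were treated. Without the replicate number in the model, the edgeR quasi-likelihood test (Benjamini-Hochberg adjusted p under 0.05) called 0 of the 201 pseudogenes tested and 0% of 14844 genes. At an unadjusted p under 0.05 it gave 12 of 201, against 6.43% of all genes. Without the block, limma-voom called 0 pseudogenes and DESeq2 called 4, against 1.02% of all genes: PGM5P2 (DESeq2 adjusted p = 5.18e-09), FAM86DP (0.0146), RPL23AP82 (0.0151) and LPAL2 (0.0411), all higher in the knockdown. With the replicate number as a block, edgeR called 12 higher and 1 lower of 201, which is 6.47%, against 13.5% of all genes. By direction, 12 of 201 higher stood beside 5.48% of all genes called higher, and 1 of 201 lower beside 8.01% called lower. Of all genes tested, 12099 were protein-coding genes with a mean of at least 10 counts, and 15.3% of these were called. The pseudogenes had a lower median FPKM than such genes, and low counts leave less power to call a change. The part of depth in these shares was not tested. No test of the difference between the pseudogenes and all genes was made. In bulk RNA, less RNA per cell and fewer cells that hold the RNA cannot be told apart. TPTE2P1 and AC004951.2 did not pass the filter on low counts and were not tested.

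The adjusted p of the 13 ran from 0.000942 to 0.049 with the block and from 0.33 to 1 without it. All 13 had the same sign in the 3 same-numbered pairs of libraries. They were called from these same pairs, so the shared sign is no separate support. The 2 groups of libraries did not overlap for 8 of the 13 and overlapped for AADACP1, FRG1HP, SMG1P3, STAG3L1 and PKD1P5. Without pair 2, 8 of the 13 were called and without pair 3, 6 of the 13; the calls of FRG1HP, LRRC37A17P, SMG1P3, STAG3L1 and PKD1P5 were lost in both, and those of LPAL2 and FAM86HP without pair 3. With the block, DESeq2 called 9 of the 13, all but FRG1HP, LRRC37A17P, SMG1P3 and PKD1P5, and edgeR with upper-quartile scaling called 12, all but PKD1P5. With replicates 2 and 3 alone, all 13 were among 19 pseudogenes called higher and 6 called lower of 199, against 27.6% of all genes.

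**Figure D1:**
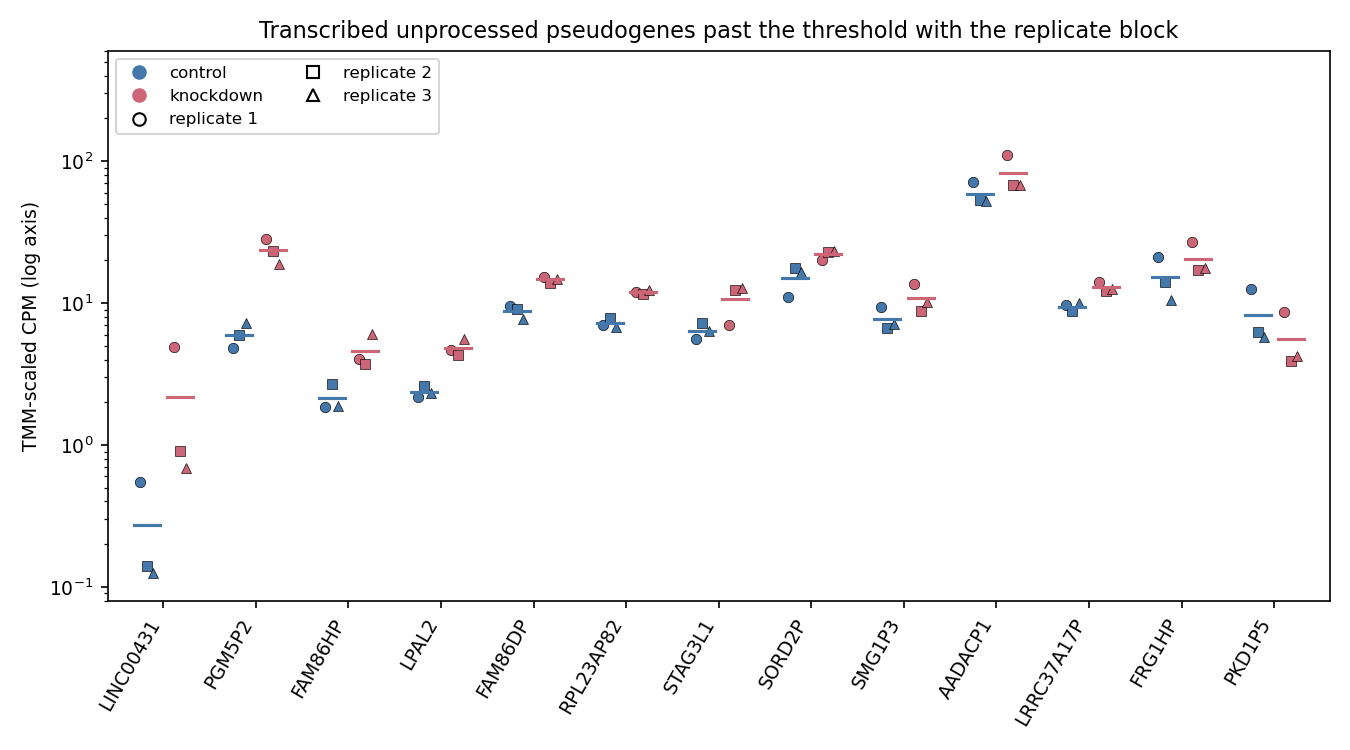
TMM-scaled CPM on a log axis in each of the 6 libraries for the 13 pseudogenes past the threshold with the replicate block, ordered by fold change; symbols mark the replicate number and bars the group means. PGM5P2 rises from 4.80 to 7.25 CPM in the controls to between 18.8 and 28.3 CPM in the knockdown, while for AADACP1, FRG1HP, SMG1P3, STAG3L1 and PKD1P5 the groups overlap.

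PGM5P2 had the lowest adjusted p. Its counts were 70, 84 and 116 in control replicates 1 to 3 and 426, 385 and 275 in the knockdown, or 4.80, 5.95 and 7.25 CPM against 28.3, 23.3 and 18.8 CPM. Every knockdown library exceeded every control library. The log2 fold change was 1.95 ± 0.20 (SE; edgeR with the replicate block, adjusted p = 0.000942; without the block, adjusted p = 0.33). Its parent PGM5, a phosphoglucomutase-like protein of cell adhesion sites, had 0 to 3 counts in any library and was not tested. PGM5P2 shared 21.8% of its 75-base words with PGM5, and the 2 transcripts were 98.6% identical over the aligned stretch. FRG1HP, which overlaps PGM5P2 on the opposite strand, had 21.2, 14.1 and 10.5 CPM in the controls and 27.0, 17.2 and 17.6 CPM in the knockdown, a log2 fold change of 0.45 ± 0.12 (edgeR adjusted p = 0.038). Only 4.80% of the exon bases of PGM5P2 overlapped it. AL353763.2 lies inside the spans of PGM5P2 and FRG1HP, so its reads may not be separate from theirs. It had a log2 fold change of 1.08 and also passed the threshold with the block. AL353763.1, inside the same spans, had 0.15 (edgeR with the block, adjusted p = 0.83). CBWD6, which overlaps FRG1HP but not PGM5P2, had 0.27 (adjusted p = 0.28). AL353763.2, AL353763.1 and CBWD6 were looked up after the values of PGM5P2 were seen.

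LINC00431, which carries a name for a long noncoding RNA and is a pseudogene by its deposited biotype, had 8, 2 and 2 counts in the controls and 74, 15 and 10 in the knockdown. The groups did not overlap, but both replicate 1 libraries were well above their partners. The log2 fold change was 2.90 ± 0.42 (edgeR with the block, adjusted p = 0.0047), the highest among the 201 and one that rests on few counts. It shared 16.0% of its words with TUBGCP3, a gene for a gamma-tubulin complex protein, which fell by 0.54 on the log2 scale (edgeR with the block, adjusted p = 0.0047).

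LPAL2, a copy related to the apolipoprotein(a) gene LPA, had 2.19, 2.62 and 2.31 CPM in the controls and 4.65, 4.30 and 5.55 CPM in the knockdown. The groups were apart, with a log2 fold change of 1.02 ± 0.22 (edgeR with the block, adjusted p = 0.019). LPA itself had at most 1 count in any library.

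RPL23AP82, a copy related to the gene for a protein of the large ribosomal subunit, had 7.06, 7.86 and 6.82 CPM in the controls and 12.0, 11.6 and 12.4 CPM in the knockdown. The libraries of each group lay close together and the groups were far apart, with no shift in replicate 1. The log2 fold change was 0.73 ± 0.13 (edgeR with the block, adjusted p = 0.010), while that of RPL23A was -0.01 (adjusted p = 0.89). The ratio of pseudogene to parent was higher in every knockdown library than in every control library, with an exact two-sided permutation p of 0.1, the smallest that 3 against 3 libraries allow. The pair was among those named for the size of this difference, so the ratio is a description and no further test. RPL23AP82 and RPL23A shared no 75-base word, and 42.1% of the words of RPL23AP82 were shared with other transcripts, 24.1% with the copy RPL23AP7.

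AADACP1 had 71.9, 53.3 and 52.1 CPM in the controls and 111, 68.5 and 67.8 CPM in the knockdown. Control replicate 1 was above knockdown replicates 2 and 3, while each knockdown library was above its same-numbered control. The log2 fold change was 0.46 ± 0.08 (edgeR with the block, adjusted p = 0.0074; without the block, 0.90). AADAC had 25.5, 11.5 and 11.7 CPM in the controls and 41.1, 18.1 and 19.5 CPM in the knockdown, a log2 fold change of 0.69 ± 0.09 (edgeR with the block, adjusted p = 0.0035). The pseudogene ends 29143 bases before AADAC starts, on the same strand, and shares no 75-base word with it or with any other transcript searched. Between them lies another member, AC068647.2, at 12.8, 6.44 and 6.25 CPM in the controls and 18.8, 7.82 and 5.76 CPM in the knockdown, with a log2 fold change of 0.28 (adjusted p = 0.28). The antisense row AADACL2-AS1, which spans the locus, had a log2 fold change of 0.94 (adjusted p = 0.030), and SUCNR1, the succinate receptor gene inside the same span, 1.26 (adjusted p = 0.10). These neighbours were looked up after the values of AADACP1 were seen.

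SORD2P, a copy of the sorbitol dehydrogenase gene, had 11.0, 17.8 and 16.4 CPM in the controls and 20.2, 22.8 and 23.2 CPM in the knockdown. The groups were apart, with a log2 fold change of 0.56 ± 0.12 (edgeR with the block, adjusted p = 0.018). SORD rose by 0.48 (adjusted p = 0.0082). SORD2P shared 52.5% of its words with SORD, so the 2 counts were not independent of how shared reads were placed.

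SMG1P3 is a partial copy of SMG1, the kinase that phosphorylates UPF1 in NMD. It had 9.39, 6.65 and 7.13 CPM in the controls and 13.6, 8.85 and 10.2 CPM in the knockdown, a log2 fold change of 0.49 ± 0.13 (edgeR with the block, adjusted p = 0.039). The lowest knockdown library was below the highest control library. SMG1 changed by -0.04 (adjusted p = 0.65). STAG3L1, a copy related to the meiotic cohesin gene STAG3, had 5.55, 7.22 and 6.32 CPM in the controls and 7.04, 12.3 and 12.8 CPM in the knockdown, a log2 fold change of 0.73 ± 0.16 (adjusted p = 0.022). LRRC37A17P had 9.66, 8.78 and 9.94 CPM in the controls and 14.1, 12.2 and 12.6 CPM in the knockdown, a log2 fold change of 0.45 ± 0.12 (adjusted p = 0.040). These 3 shared 82.3%, 65.7% and 64.9% of their words with other transcripts.

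PKD1P5 was the single pseudogene called lower by edgeR with the block. The call was lost with upper-quartile scaling (adjusted p = 0.0644), where 16 pseudogenes were called higher and 0 lower, and under DESeq2 with the block, where 9 were called higher and 0 lower. It had 12.5, 6.30 and 5.75 CPM in the controls and 8.64, 3.94 and 4.25 CPM in the knockdown, a log2 fold change of -0.55 ± 0.16 (edgeR, adjusted p = 0.049). Its parent PKD1, the gene for polycystin-1, fell by 0.32 (adjusted p = 0.029), and 85.0% of the words of PKD1P5 were shared with other transcripts.

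Over all 201, the median log2 fold change was 0.11 in the fit with the block and in the fit that left it out, against 0.00 for all genes tested. With the block, 128 were positive and 73 negative, so 63.7% were positive, against 7426 of 14844 genes in all. The medians in pairs 1, 2 and 3 were 0.15, 0.15 and 0.07. In the fit without the block, leaving out 1 library moved it: it was -0.07 without knockdown replicate 1, 0.29 without control replicate 1 and 0.03 without control replicate 2. With replicates 2 and 3 of both groups alone, in the fit with the block, it was 0.08. It was 0.06 over the members whose span overlapped no other gene. Fitted changes ran from -0.78 to 2.90, and 157 of 201 lay within 0.5 of 0. Groups did not overlap for 21 pseudogenes that were higher in the knockdown (10.4%, against 7.52% of all genes) and for 5 that were lower (2.49%, against 7.38%). The 5 were SVIL-AS1, AC126755.1, AL353743.1, MRPS31P4 and LINC01529, none of them past the threshold, and they are named after their values were seen.

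**Figure D2:**
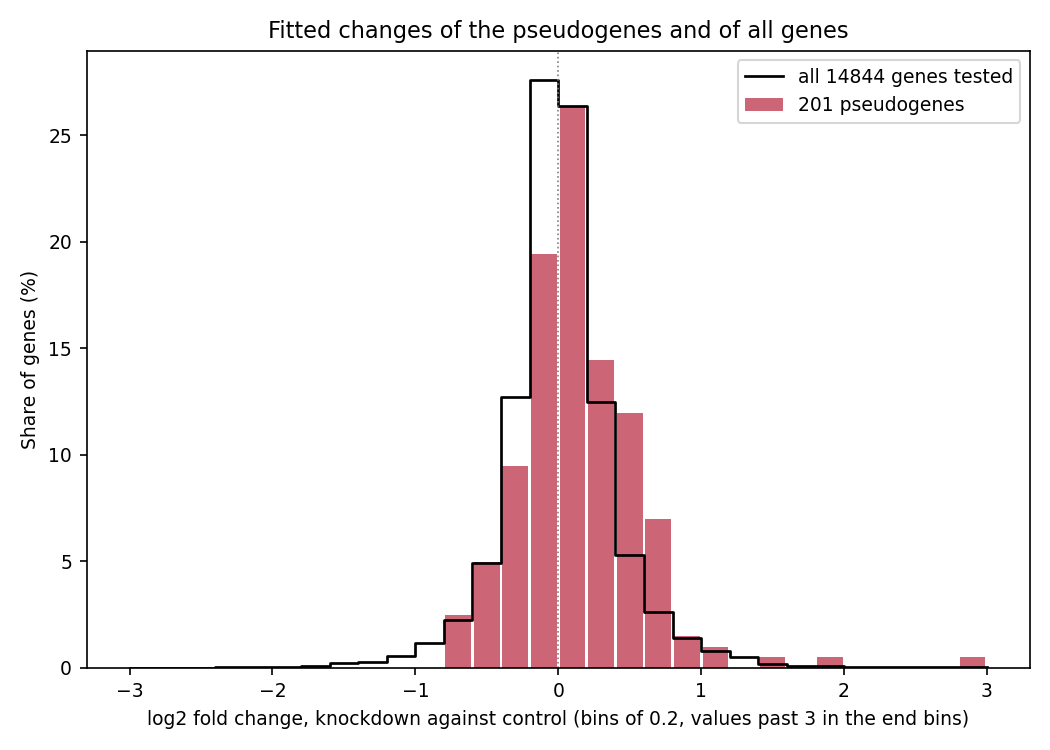
Share of genes (%) in bins of log2 fold change, knockdown against control, from the edgeR fit with the replicate block: bars for the 201 pseudogenes tested, the black line for all 14844 genes tested. Both peak beside 0, and 128 of the 201 pseudogenes and 7426 of the 14844 genes lie above it.

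Pseudogenes of 2 other kinds were set beside these by the same minimum count. Among transcribed processed pseudogenes, copies made through an RNA intermediate, 3 of 66 tested were called higher with the block and 0 lower (4.55%), with a median log2 fold change of 0.11. Among unprocessed pseudogenes annotated without transcription, 1 of 76 was called higher and 2 lower (3.95%), with a median of -0.03. Of all genes tested with the block, 5.48% were called higher and 8.01% lower, 13.5% in either direction. No test of the difference between these lists, or between them and all genes, was made.

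The FAM86 copies were examined as a group after their values were seen. FAM86 genes encode relatives of EEF2KMT, which methylates translation elongation factor 2, and their copies are spread over several chromosomes. All 7 FAM86 pseudogenes among the members had positive log2 fold changes, from 0.46 to 1.09 with the block. Of the 7, 2 were called higher by edgeR with the block, against 5.48% of all genes. FAM86DP had 9.60, 9.06 and 7.75 CPM in the controls and 15.3, 13.9 and 14.9 CPM in the knockdown. Every knockdown library was above every control library, with a log2 fold change of 0.74 ± 0.13 (edgeR with the block, adjusted p = 0.0083; without the block, 0.53). FAM86HP had 1.85, 2.69 and 1.88 CPM against 4.05, 3.70 and 6.03 CPM, a log2 fold change of 1.09 ± 0.27 (edgeR with the block, adjusted p = 0.033).

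The other 5 FAM86 pseudogenes, FAM86B3P, FAM86JP, FAM86EP, FAM86C2P and FAM86FP, had log2 fold changes of 0.49, 0.67, 0.60, 0.80 and 0.46 with adjusted p of 0.069, 0.091, 0.10, 0.084 and 0.43. The groups were apart for FAM86EP and FAM86C2P and overlapped for the other 3. Over all genes tested, 7.52% were higher in the knockdown without overlap. Of the 4 coding genes of the family, EEF2KMT had 6.99, 13.1 and 13.2 CPM in the controls and 11.2, 18.1 and 16.7 CPM in the knockdown, a rise of 0.48 (edgeR with the block, adjusted p = 0.031). FAM86B1 rose by 1.05 (adjusted p = 0.027), while FAM86B2 had 0.70 (adjusted p = 0.25) and FAM86C1 0.25 (adjusted p = 0.36). The calls of EEF2KMT and FAM86B1 were lost without the block (0 of 4 called, lowest edgeR adjusted p = 0.697), with the block under DESeq2 (0 of 4, lowest adjusted p = 0.0541) and with the block without pair 2 (0 of 4, lowest edgeR adjusted p = 0.116). Replicate 1 was the lowest library of its group for EEF2KMT and FAM86C1 and the highest for FAM86B1 and FAM86B2. FAM86DP shared 12.7% of its words with other transcripts and FAM86HP 5.69%. With replicates 2 and 3 alone, 4 of the 7 pseudogenes and 2 of the 4 coding genes were called, against 27.6% of all genes.

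**Figure D3:**
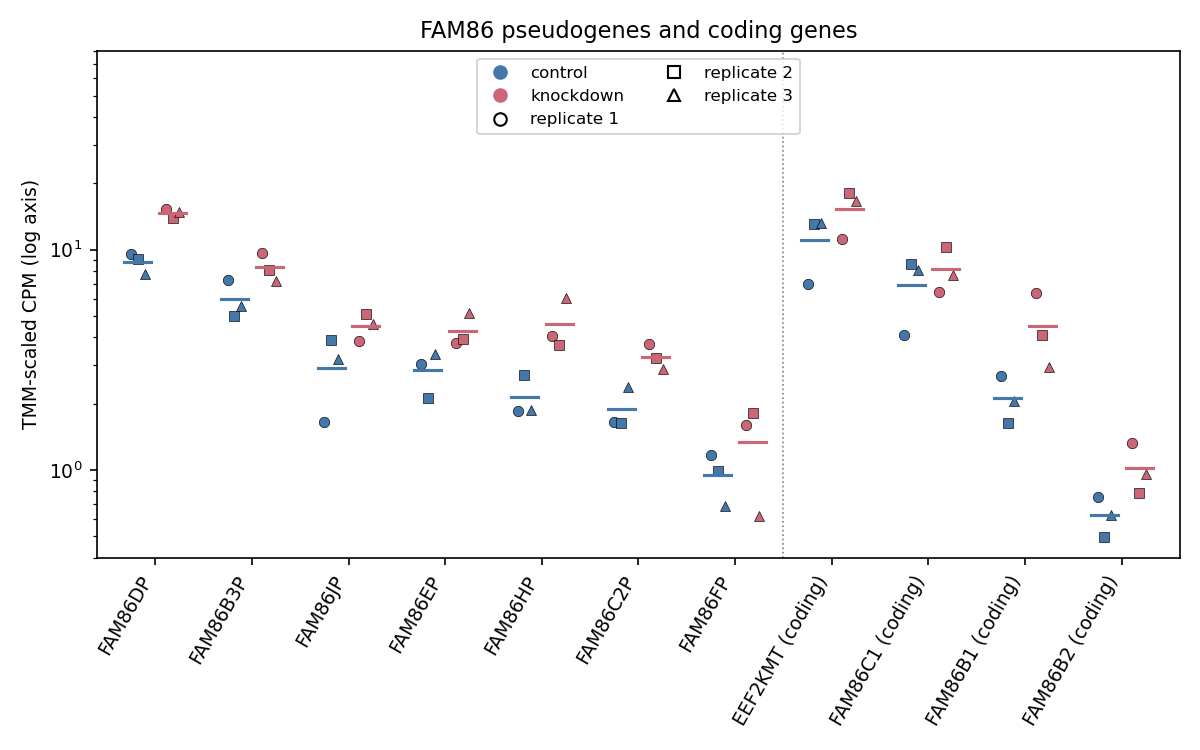
TMM-scaled CPM on a log axis in each library for the 7 FAM86 pseudogenes (left of the dotted line) and the 4 coding genes (right), with replicate symbols and group means as bars. The knockdown mean is above the control mean for each of the 11 genes, a family chosen after its values were seen. The groups do not overlap for FAM86DP, FAM86EP, FAM86HP, FAM86C2P, FAM86B1 and FAM86B2, against 7.52% of all genes higher without overlap.

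In the other families with at least 3 members, 3 copies passed the threshold with the block: SMG1P3, STAG3L1 and LRRC37A17P. The number of positive members in each of these families was the same with DESeq2's size factors and with upper-quartile scaling, except among the zinc finger copies, where ZNF767P lay near 0 and changed sign. In the sentences that follow, log2 fold changes are from the edgeR fit with the block. The 5 copies of SMG1 had 4 positive values and a median of 0.20. Only SMG1P3 was called, and SMG1P1, at 24.3, 28.8 and 30.8 CPM in the controls and 39.3, 30.3 and 27.6 CPM in the knockdown, had 0.20 (adjusted p = 0.40). SMG1P5 had -0.16 (adjusted p = 0.55). The copies shared 23.0% to 95.2% of their words, so single members are uncertain.

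The 5 STAG3L copies were all positive, with a median of 0.09 and STAG3L1 alone called. STAG3L2 had 0.20, STAG3L3 0.09 and STAG3L4 0.08. The 4 copies of GTF2I, which encodes a general transcription factor of the Williams syndrome region, were also all positive, from 0.07 to 0.35, with none called; GTF2IP1 had 0.31, GTF2IP13 0.23 and GTF2IP20 0.07. The 3 copies of BMS1, a ribosome assembly GTPase gene, were positive too. BMS1P1 had 6.65, 5.73 and 5.07 CPM in the controls and 10.6, 7.75 and 6.72 CPM in the knockdown, groups that were just apart, with a log2 fold change of 0.51 and an adjusted p of 0.059. BMS1P4 had 0.23 and BMS1P2 0.13. The STAG3L copies shared 8.04% to 65.7% of their words, the GTF2I copies 15.7% to 94.9% and the BMS1 copies 19.95% to 58.2%. Signs within a family are thus not those of fully separate counts.

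The 4 copies of HERC2, which encodes a large ubiquitin ligase, were all negative, with a median of -0.14 and none called. They shared 36.6% to 63.8% of their words, so their counts were not independent of how shared reads were placed. HERC2P2 had 66.3, 45.0 and 47.1 CPM in the controls and 51.0, 46.5 and 42.2 CPM in the knockdown, a value of -0.17 (adjusted p = 0.25). HERC2P9 had -0.05 and HERC2P3 -0.20. Copies of WASHC1, whose product starts actin branches on endosomes, gave 0.09 for WASH3P, 0.21 for WASH2P and -0.09 for WASH6P. Of the LRRC37A copies, LRRC37A4P had 0.03 and LRRC37A16P -0.33 beside the called LRRC37A17P. DPY19L2P1, DPY19L2P2 and DPY19L2P3 had 0.17, 0.11 and -0.17, and GOLGA2P10, GOLGA2P7 and GOLGA2P5 had 0.11, 0.22 and -0.52. Among 6 zinc finger copies none was called: ZNF252P had -0.13, ZNF767P -0.02 and ZNF883 -0.74 (adjusted p = 0.056).

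Of the pseudogenes highest by FPKM, 5 have not yet been given a fold change, and none of them passed the threshold over all 3 pairs. SBDSP1 had 24.3, 33.1 and 34.2 CPM in the controls and 29.8, 40.4 and 38.2 CPM in the knockdown, a log2 fold change of 0.24 (edgeR with the block, adjusted p = 0.080). It was positive in each pair, and with replicates 2 and 3 alone it was called at 0.22 (edgeR with the block, adjusted p = 0.029). Its parent SBDS rose by 0.28, and the pseudogene shared 7.01% of its words with other transcripts. CROCCP2 had 0.04, AL390728.4 0.02, SDHAP1 -0.04 and AC132008.2 -0.13.

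Pseudogenes were next compared with their parents, which asks whether a copy moved with the gene it came from. In 83 pairs both were tested, with 54 parents, so some parents stand in several pairs. The log2 fold change of the pseudogene minus that of the parent had a median of 0.07 (0.06 in the fit that left out the block), and 47 pseudogenes were above and 36 below their parent. Without the block this median was -0.13 without knockdown replicate 1. Across the 83 pairs the 2 log2 fold changes had a Pearson r of 0.21 and a Spearman rho of 0.14, given as a description, since pairs share libraries, parents and in part reads. Both members of a pair were called in 3 cases, AADACP1 with AADAC, SORD2P with SORD and PKD1P5 with PKD1, each in the same direction. The pseudogene alone was called in 3 pairs and the parent alone in 11. Of the 54 parents, 6 were called higher and 4 lower (18.5%, against 13.5% of all genes).

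**Figure D4:**
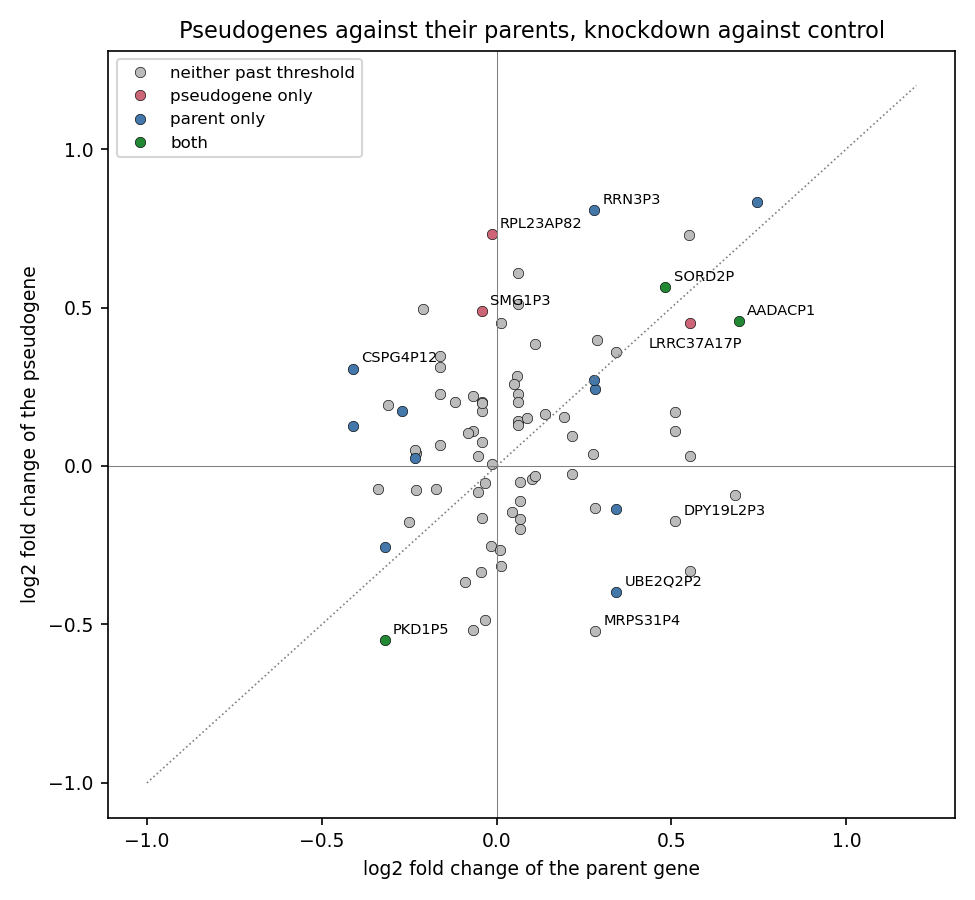
Log2 fold change of the pseudogene against that of its parent, knockdown against control, for 83 pairs from the edgeR fit with the replicate block; colours show which of the 2 passed the threshold and the dotted line marks equal change. AADACP1, SORD2P and PKD1P5 lie near that line with both genes called, and RPL23AP82 lies at 0.73 over a parent at -0.01.

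The pairs that differed most, with both genes at 1 CPM or more, included RPL23AP82 at 0.75 above its parent and SMG1P3 at 0.53 above SMG1. CSPG4, the gene for the melanoma-associated proteoglycan NG2, fell by 0.41 (edgeR with the block, adjusted p = 0.010). Its copies CSPG4P12 and CSPG4P10 had 0.31 and 0.13, differences of 0.72 and 0.54. CSPG4P10 had 6.72, 3.19 and 4.50 CPM in the controls and 8.44, 3.57 and 4.04 CPM in the knockdown, groups that overlapped. Its ratio to CSPG4 was higher in every knockdown library (exact permutation p = 0.1), while that of CSPG4P12 overlapped between the groups (exact permutation p = 0.2). These pairs were chosen by the size of their difference, so the ratios only describe them and are no further test. Neither copy shared a 75-base word with CSPG4. RRN3P3, a copy of the gene for an initiation factor of RNA polymerase I, had 2.12, 3.61 and 3.81 CPM in the controls and 6.78, 5.21 and 4.73 CPM in the knockdown. Its groups were apart, at 0.81 (adjusted p = 0.082), and RRN3 rose by 0.28 (adjusted p = 0.029).

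In the other direction, MRPS31P4 lay 0.80 below MRPS31, a mitochondrial ribosome gene, with 2.95, 3.04 and 2.75 CPM in the controls and 1.60, 1.94 and 2.60 CPM in the knockdown. UBE2Q2P2 and UBE2Q2P1 lay 0.74 and 0.48 below UBE2Q2, a ubiquitin-conjugating enzyme gene, which rose by 0.34 (edgeR with the block, adjusted p = 0.035). DPY19L2P3 lay 0.68 below DPY19L2, and WHAMMP2 lay 0.45 below WHAMM, which encodes an actin-nucleation factor. None of these 5 pseudogenes passed the threshold.

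For 159 of 201 pseudogenes the log2 difference between replicate 1 and replicates 2 and 3 was larger in size than that between knockdown and control, against 11139 of 14844 genes in all. With the group in the model, replicate 1 was higher than replicates 2 and 3 for 90 of 201 pseudogenes and lower for 22 (edgeR, adjusted p under 0.05), against 31.6% and 30.2% of all genes. The median log2 difference was 0.40, against 0.03 for all genes. HSD3BP5, a copy of a steroid dehydrogenase gene, had 8.64, 0.566 and 0.750 CPM in the 3 control libraries and 13.1, 0.545 and 1.71 CPM in the knockdown, a replicate difference of 3.61. AC241952.1 had 41.7, 8.0 and 8.63 CPM in the controls and 40.7, 5.76 and 5.14 CPM in the knockdown, and 67.1% of its words were shared with other transcripts, PDE4DIP first among them. KRT87P, a keratin copy, was low in replicate 1 instead, with 1.03, 2.83 and 3.13 CPM in the controls and 1.73, 6.18 and 4.32 CPM in the knockdown. These 3 are named after their values were seen. RNA was extracted with one of 2 reagents, and the labels do not say which library had which.

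**Figure D5:**
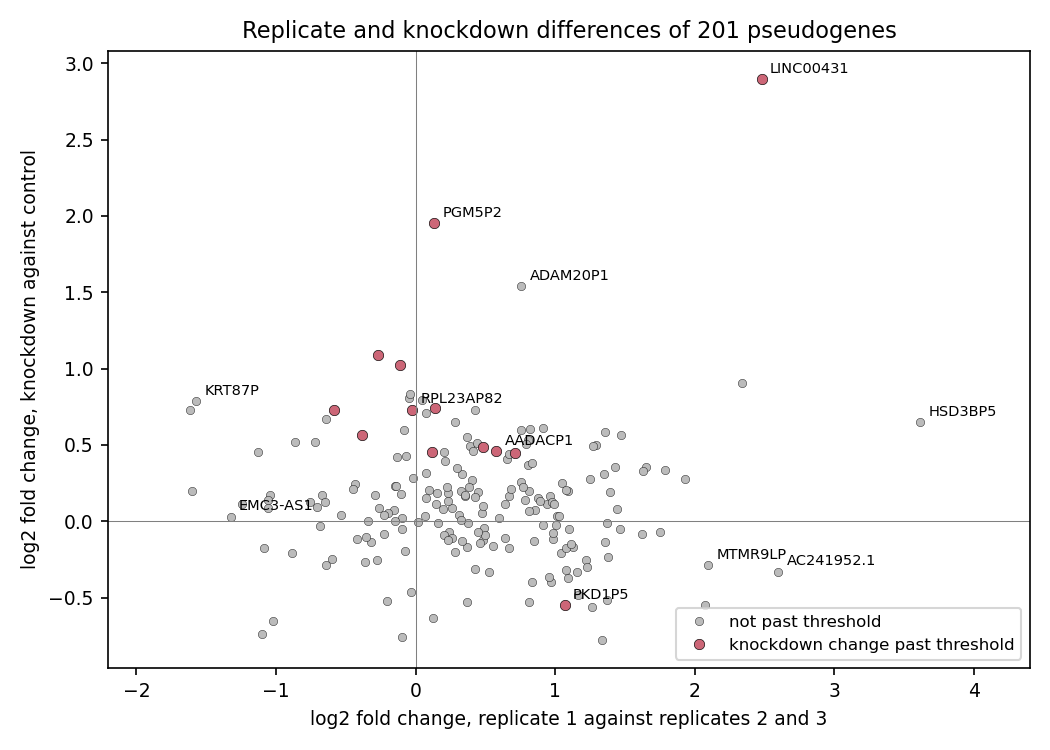
Each point is 1 of 201 pseudogenes: on the x axis the log2 fold change of replicate 1 against replicates 2 and 3, on the y axis that of knockdown against control with the replicate block. Points spread from -1.62 to 3.61 along x and mostly within 0.5 of 0 along y. PGM5P2 stands out on y with x near 0, RPL23AP82 lies at 0.73 on y with x near 0, and LINC00431 is high on both.

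Pairs 2 and 3 alone gave 25 calls, 12.6% of the 199 tested, against 27.6% of all genes. Of these calls, 13 were also made over all 3 pairs. NMRAL2P had 16.4, 10.9 and 10.5 CPM in the controls and 19.3, 5.45 and 4.45 CPM in the knockdown. In pairs 2 and 3 alone its log2 fold change was -1.11 (edgeR with the block, adjusted p = 2.36e-09), while in pair 1 it was 0.24, and over all 3 pairs it was not called (adjusted p = 0.23). ADAM20P1 had 0.822, 0.142 and 0.188 CPM in the controls and 1.06, 1.09 and 1.03 CPM in the knockdown, with an adjusted p of 0.099 over all pairs. Its change in pairs 2 and 3 alone was 2.62 (edgeR with the block, adjusted p = 0.0024). Of the 25, 22 had the same sign in pair 1. NMRAL2P and ADAM20P1 are named after their values were seen.

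Because spliced pseudogene RNAs are known substrates of RNA decay, 37 genes of NMD and of nuclear RNA decay were counted. Without the block edgeR called 0 of the 37, with 4 at an unadjusted p under 0.05, while DESeq2 called 1 and limma-voom 0. With the block edgeR called 4 higher and 2 lower of the 37, against 5.48% and 8.01% of all genes (13.5% in either direction). The median log2 fold change was -0.02. No test of the difference between this list and all genes was made. SMG6, the endonuclease of NMD, had 42.9, 42.3 and 44.1 CPM in the controls and 31.3, 33.3 and 30.0 CPM in the knockdown, groups that were apart, and fell by 0.45 (edgeR with the block, adjusted p = 0.0096). XRN1, the cytoplasmic 5′ to 3′ exonuclease, fell by 0.36 (adjusted p = 0.045). The 4 higher were DHX34, an NMD helicase, at 0.35 and the exosome subunits EXOSC4 at 0.32, EXOSC5 at 0.40 and EXOSC7 at 0.34. The number called higher varied most. With the block, limma-voom called 4 higher and 2 lower, and DESeq2 called 1 higher and 2 lower. In edgeR with the block, 8 were higher and 2 lower without pair 1, 0 and 1 without pair 2, and 2 and 2 without pair 3. SMG1 itself had -0.04. The part of these genes in the levels of the pseudogenes was not tested.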

How the data were processed

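RNA-seq was made from total RNA with a SMARTER mRNA kit, per the labels' protocols; the aligner, the counting program and the use of strand were not given in the sources used here. The authors deposited raw counts per gene and FPKM values, per the file headers, on build hg38, per the submitters' processing notes. The biotype column of the count table chose the members. The members and lists were chosen with earlier results of these data known. Total counts per library were 14306733 to 16656630.

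The deposited counts were fitted with edgeR 4.0.16 (TMM, filterByExpr, robust quasi-likelihood F-test) over 14844 genes, with Benjamini-Hochberg adjustment and a threshold of 0.05. SE is the log2 fold change over the root of F. The planned model held the group only. The replicate number was added as a block because same-numbered libraries deviated together (correlations 0.84, 0.63 and 0.62 for pairs 1 to 3), a pairing that the labels do not state. DESeq2 1.42.0 and limma 3.58.1 were alternatives. CPM are TMM-scaled. On data simulated from the blocked fit over 14844 genes, the block recovered 62% of genes changed 1.5-fold, 80.5% changed 2-fold and 96% changed 4-fold. The model without it recovered 0%, 0% and 44.5%. The simulated data held the replicate differences of the blocked fit, so this cannot show whether the block is right for the real data.

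Parents were taken from symbols: a final P with its digits was removed and the protein-coding gene of that symbol used, or the symbol without its last digits. Coding sequences and transcripts from GENCODE release 29 were aligned with blastn 2.17.0 (E value up to 1e-10) and cut into 75-base words. Named members were the 10 of highest FPKM, the 8 largest called changes in each direction at 0.5 CPM or more in the higher group, up to 3 of each family with 3 or more members, the 2 on either side of the minimum count, and the 5 pairs in each direction that differed most at 1 CPM or more. Others are marked where they appear. No columns of other samples were in the tables.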

Additional observations from a re-analysis of the deposited data

How the results depend on the processing

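Without the replicate number, 0 pseudogenes were called under every alternative run with edgeR or limma-voom, the fits that left out 1 library included. DESeq2 called 4, against 1.02% of all genes. The block changed the calls: 13 with edgeR, which is 6.47% against 13.5% of all genes. It gave 9 with DESeq2, 14 with limma-voom and 16 with upper-quartile scaling. Fits chosen after seeing the data gave 20 with no filter, 11 at a mean of 5 CPM or more and 12 at a mean count of 20 or of 50 or more. Among members with under 50% of their words shared there were 8. The share of all genes called in these other fits is not given here. Over fits that left out a library or a pair the count ran from 0 to 25. The 25 came from pairs 2 and 3 alone and were 12.6% of the 199 tested there, against 27.6% of all genes. The decay factor genes had 6 calls with the block and 1 with DESeq2 without it. With the block there were 3 with DESeq2, 6 with limma-voom, 5 with upper-quartile scaling, 6 with no filter and 5 at 5 CPM or more. Leaving out a library or a pair gave 0 to 10, and the 10 came from pairs 2 and 3 alone, where 27.6% of all genes were called. The cause of these differences was not tested.

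The median log2 fold change of the members ran from -0.0706 to 0.29 over fits that left out a library or a pair, and that of the difference to the parent from -0.13 to 0.15. Over members whose span overlaps no other gene they were 0.0558 and -0.00987. The ends of the first range, -0.0706 and 0.29, came from fits without the block that left out knockdown or control replicate 1. In the fit with the block that left out pair 1, the median log2 fold change of the members was 0.08. The fits that left out 1 library had no block, while those that left out a pair had it. Leaving out a replicate 1 library thus left the replicate 1 difference uneven between the groups. That difference was larger in size than the knockdown difference for 159 of 201 pseudogenes. With both kinds of fit counted together, the sign of 30 of 54 named members changed in at least 1 fit. Such a count cannot tell an unstable member from the uneven replicate 1 difference. None of these 30 is among the 13 called, a list made from the same libraries. Their lowest and highest log2 fold changes in those fits were AC068647.2 (-0.33 to 0.76), AC132008.2 (-0.28 to 0.0818), AL390728.4 (-0.22 to 0.23), BMS1P2 (-0.15 to 0.56), CROCCP2 (-0.13 to 0.13), CSPG4P10 (-0.34 to 0.47), CSPG4P12 (-0.20 to 1.12), DPY19L2P1 (-0.13 to 0.41), DPY19L2P2 (-0.22 to 0.46), DPY19L2P3 (-0.68 to 0.23), GOLGA2P10 (-0.33 to 0.45), GOLGA2P5 (-1.12 to 0.0992), GOLGA2P7 (-0.40 to 1.02), GTF2IP13 (-0.0252 to 0.48), GTF2IP20 (-0.30 to 0.35), HERC2P2 (-0.28 to 0.0134), LRRC37A16P (-0.90 to 0.11), LRRC37A4P (-0.0765 to 0.12), SDHAP1 (-0.20 to 0.17), SMG1P1 (-0.0443 to 0.38), SMG1P5 (-0.38 to 0.12), STAG3L3 (-0.0639 to 0.18), STAG3L4 (-0.10 to 0.29), UBE2Q2P1 (-0.75 to 0.45), UBE2Q2P2 (-0.84 to 0.0234), WASH2P (-0.0514 to 0.49), WASH3P (-0.0316 to 0.22), WASH6P (-0.24 to 0.0528), WHAMMP2 (-0.92 to 0.23) and ZNF767P (-0.47 to 0.38). ZNF767P, at 0.00367 without the block, was also negative with the block (-0.0242), with DESeq2's size factors (-0.00687), with no filter (-0.0191), with DESeq2 (-0.00689) and limma-voom (-0.0431) without the block, and with the block under DESeq2 (-0.0443), limma-voom (-0.000889), no filter (-0.0407) and 5 CPM or more (-0.00647). SDHAP1 was 0.00626 with the block and upper-quartile scaling.

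Depth limits the members near the minimum count, and LINC00431 had 2 counts in each of control replicates 2 and 3. Counts of copies that share most of their words rest on how reads were placed, which was not given in the sources used here.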
